A study of Mus musculus with 2 samples.

Results

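Neurons carry a set of microRNAs (miRNAs) that are scarce in most other cells, and 5 such families, miR-129, miR-137, miR-138, miR-153 and miR-218, are described here in the left cerebral cortex of 10-day-old male mice. They were chosen by gene symbol. The rule used no measured value, but earlier results of these data were known when the choice was made. The families comprise 8 of the 2202 miRNA genes in the count tables: Mir129-1, Mir129-2, Mir137, Mir138-1, Mir138-2, Mir153, Mir218-1 and Mir218-2. Both animals were of the B6CASTF1/J strain, a cross of B6 and CAST mice, and the labels give no treatment. There was 1 group of 2 biological replicates, specimens 3 and 4 of the same strain-level donor entry, and no other age, sex or tissue was measured. The samples were pieces of tissue with many cell types, so fewer cells of a type and less RNA per cell cannot be told apart.

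A miRNA gene is transcribed as a long primary RNA from which a hairpin is cut. The hairpin yields a strand from its 5′ side (5p) and one from its 3′ side (3p), and a loaded strand guides repression of messenger RNAs that pair with its seed, here bases 2 to 8. miR-137 and miR-138 are known for roles in dendrite growth and spine size, and miR-129-5p for repression of a potassium channel of dendrites. miR-153 is known to target proteins of synaptic vesicle release, and miR-218 is known best from motor neurons.

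The strands below, from the RefSeq table of build GRCm38.p6 with the seed in capitals, are those usually described as active, and they show which genes can be told apart by their reads.
miR-137-3p: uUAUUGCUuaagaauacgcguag
miR-153-3p: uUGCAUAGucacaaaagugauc
miR-129-5p: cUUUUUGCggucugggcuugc
miR-138-5p: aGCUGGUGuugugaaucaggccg
miR-218-5p: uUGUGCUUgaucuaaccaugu

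The 5 seeds differ from each other, so the families do not share a seed on these strands. Among the other mature miRNAs of the table, miR-7002-3p has the seed of miR-218-5p, and none has that of the other 4 strands. miR-137-3p and miR-153-3p occur in 1 hairpin each. The 5p strands of miR-129, miR-138 and miR-218 occur in 2 hairpins each, letter for letter. Mir137 and Mir153 are therefore single-locus genes, and the other 6 form 3 pairs of copies.

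Within each pair the copies differ on the 3p side. The RefSeq table gives no 3p strand for Mir129-1, so none is printed or searched for its seed. The lines below set a 3p strand above the same stretch of the other copy's hairpin, aligned without gaps, with the bases that differ in capitals.
miR-129-2-3p: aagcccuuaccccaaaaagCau
Mir129-1, chr6:29022667-29022688, plus strand: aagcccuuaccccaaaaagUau
miR-138-1-3p: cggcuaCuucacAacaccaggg
Mir138-2, chr8:94324357-94324378, plus strand: cggcuaUuucacGacaccaggg
miR-218-1-3p: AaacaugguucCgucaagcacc
Mir218-2, chr11:35616879-35616900, plus strand: GaacaugguucUgucaagcacc

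Counted from the 5′ end of the 3p strand, the miR-129 copies differ by C20U, the miR-138 copies by C7U and A13G, and the miR-218 copies by A1G and C12U. The longest stretch common to a pair covered the whole 5p strand, with 26 bases for miR-129, 24 for miR-138 and 22 for miR-218. A read that lies inside such a stretch matches both copies, and these tables set aside every read with more than 1 mapping place. The miR-129 copies also share 21 bases on the 3p side, up to the base before the difference. Mir137 and Mir153 share no 20-base stretch with any other listed hairpin. For the 3 pairs, the values below thus leave out reads that match both copies, and the read counts are lower limits for the miRNA. The same is not true of levels scaled to the library total, since that total leaves out such reads too.

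**Figure D1:**
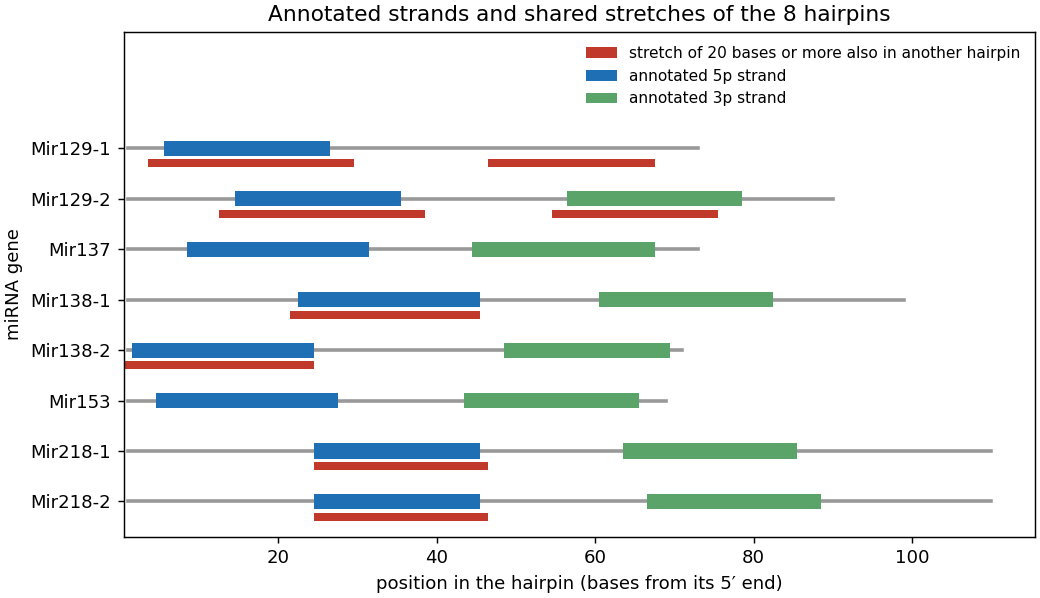
Map of the 8 hairpins, with the position in bases from the 5′ end on the horizontal axis and 1 line per gene; blue and green bars are the annotated 5p and 3p strands, and red bars are stretches of 20 bases or more found in another listed hairpin. Red bars lie under every 5p strand of the 3 pairs, under the 3p side of the miR-129 copies as well, and under neither strand of Mir137 or Mir153. Mir129-1 has no green bar because the RefSeq table lacks its 3p strand.

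The genes lie on 8 chromosomes. Mir137 (chr3:118433857-118433929, plus strand) lies in an exon of the noncoding transcript Gm26871, and Mir153 (chr12:117250817-117250885, plus strand) in an intron of Ptprn2, which encodes a protein of dense-core vesicles. Mir218-1 (chr5:48223942-48224051) and Mir218-2 (chr11:35616816-35616925), both on the plus strand, lie in introns of Slit2 and Slit3, which encode secreted axon guidance proteins. Mir138-1 (chr9:122682876-122682974) lies in an exon of the pseudogene Gm47135, and Mir138-2 (chr8:94324311-94324381) in an exon of C78859, a long noncoding RNA. Mir129-1 (chr6:29022619-29022691) lies in an exon of another, Gm3294, and Mir129-2 (chr2:94241364-94241453, minus strand) in an intron of Mir670hg. In all, 4 of the 8 lie in exons and 4 in introns of a gene on the same strand, per the GENCODE M21 annotation of mm10.

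The libraries held 9089257 reads (replicate 1) and 7432614 reads (replicate 2), of which 2677910 and 1750076 fell in a miRNA gene and on the strand of that gene. Levels are given as CPM, which is this count scaled to a common library total. Unmapped reads made up 25.5% and 42.4% of the reads, and reads mapped to more than 1 place 38.2% and 28.3%. The neuron marker list (8 genes of miR-124, miR-128, Mir132, Mir212 and Mir134) summed to 29963 and 24102 CPM. Of the 8 genes, 5 were at 2 CPM or more in both libraries. All 8 had a read in at least 1 library, although the miR-124 genes, which exist in 3 copies, stayed at 0 to 10 reads each.

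All 8 genes were detected, that is at 2 CPM or more in both libraries, against 442 of all 2202. In replicate 1 they held 1.81% of the assigned reads together (95% Wilson interval 1.79 to 1.83). Replicate 2 gave 1.36% (1.34 to 1.37), and the mean was 1.58% ± 0.321 (SD, n = 2). The intervals do not overlap, and like all intervals here they reflect counting error alone. They hold no variation between animals, and PCR copies of a molecule are counted as separate reads. Mir137 alone made up 65.2% and 59.5% of the 8 genes' reads, and the miR-138 pair most of the rest.

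Mir137 had the highest level by the reads counted, at 9938 ± 2644 CPM (SD, n = 2). Replicate 1 gave 31620 reads or 11808 CPM, and replicate 2 gave 14121 reads or 8069 CPM. Mir137 ranked 20th and 25th of the 2202 genes. Its level was 3.75 and 2.49 times that of Mir138-1, the next in order. As a single-locus gene it loses no reads of either strand to another listed hairpin.

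Mir138-1 reached 3151 and 3235 CPM (8439 and 5661 reads), the smallest relative spread among the 4 most abundant of these genes. Mir138-2 reached 1697 and 1429 CPM (4545 and 2501 reads). Both were below Mir137 and above the miR-129 genes in each library, with no overlap of ranges.

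Mir129-2 stood at 686 and 540.0 CPM (1836 and 945 reads), and Mir129-1 at 237 and 157 CPM (636 and 274 reads). Mir218-2 was lower, at 73.9 and 73.1 CPM (198 and 128 reads). Mir218-1 was the lowest by the reads counted, with 29 and 17 reads. These gave 10.8 CPM (95% Wilson interval 7.54 to 15.6) and 9.71 CPM (6.07 to 15.6). The libraries thus placed Mir218-1 at 336th and 332nd of 2202 genes, and its intervals in the 2 libraries overlap almost entirely.

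Mir153 was the gene with its 2 libraries far apart, at 1180 reads in replicate 1 and 96 in replicate 2, or 441 CPM (95% Wilson interval 416 to 467) and 54.9 CPM (44.9 to 67.0). Replicate 1 was high and replicate 2 low. Its mean of 248 CPM had an SD of 273 CPM (n = 2), and its rank moved from 143rd to 239th.

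Ordered by mean level, the genes ran Mir137, Mir138-1, Mir138-2, Mir129-2, Mir153, Mir129-1, Mir218-2 and Mir218-1. Of the 7 pairs of neighbours, 6 kept their order in both libraries and had ranges that did not overlap. The exception was Mir153 and Mir129-1, since Mir153 was 1.86 times Mir129-1 in replicate 1 and lay below it in replicate 2, at 54.9 against 157 CPM. The hairpins are 69 to 110 bases long, and the order of the mean levels was the same per base of hairpin, from 136 CPM per base for Mir137 to 0.0934 for Mir218-1. Single-locus genes and paired copies are not counted alike in this order, since reads that match both copies of a pair are left out. The order is thus one of counted reads and not of the amount of each miRNA.

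**Figure D2:**
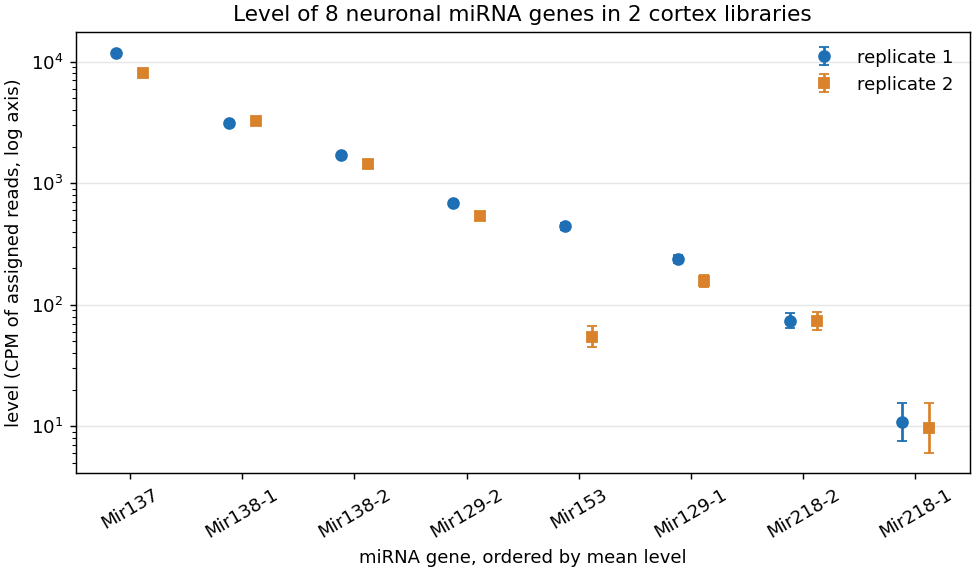
Level of each gene in CPM on a log axis, with genes ordered by mean level, circles for replicate 1, squares for replicate 2 and bars for 95% Wilson intervals. The values fall from 11808 and 8069 CPM for Mir137 to 10.8 and 9.71 CPM for Mir218-1, and Mir153 is the gene whose 2 points lie far apart (441 and 54.9 CPM).

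The copies of a family were compared next, since each pair encodes the same 5p strand. Mir129-2 had 2.89 times the reads of Mir129-1 in replicate 1 (95% exact interval 2.64 to 3.16) and 3.45 times in replicate 2 (3.01 to 3.96). Mir138-1 had 1.86 times the reads of Mir138-2 (1.79 to 1.93) and 2.26 times (2.16 to 2.37). Mir218-2 had 6.83 times the reads of Mir218-1 (4.61 to 10.5) and 7.53 times (4.52 to 13.3).

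In each pair the same copy was higher in both libraries, and no interval reached 1. The ratio itself differed between the libraries for miR-138 (Fisher's exact test, two-sided, p = 5.22e-11, adjusted over 3 pairs 1.57e-10) and for miR-129 (exact p = 0.0315, adjusted 0.0472). For miR-218 the difference was not detectable at this depth (exact p = 0.872, adjusted 0.872). These tests compare the reads of 2 libraries and not conditions. The reads counted are those that match 1 copy, so the ratios do not give the share of each copy in the common 5p strand.

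The miR-129 ratio depends on strand. Another miRNA gene, Mir129b (chr2:94241378-94241442, plus strand), lies within Mir129-2 on the opposite strand, and its hairpin is the reverse complement of 65 of the 90 bases of Mir129-2. The Mir129-2 hairpin is shown because these bases, in capitals, hold both of its strands nearly whole.
Mir129-2, chr2:94241364-94241453, minus strand: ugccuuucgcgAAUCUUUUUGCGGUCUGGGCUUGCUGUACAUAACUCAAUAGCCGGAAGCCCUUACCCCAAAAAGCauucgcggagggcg

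Counted without regard to strand, Mir129-2 kept 21 of its 1836 reads in replicate 1 and 16 of 945 in replicate 2, a loss of 98.9% and 98.3%. Mir129b had 4 reads on its own strand in replicate 1 and 0 in replicate 2, where a count of 0 allows up to 1.71 CPM. The column of opposite-strand reads gave it 1815 and 929, the same numbers that Mir129-2 lost. With the unstranded counts Mir129-2 fell to 0.0330 and 0.0584 times Mir129-1, and the order of the pair was reversed. The other 7 genes had the same counts in both columns and no read on the opposite strand.

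**Figure D3:**
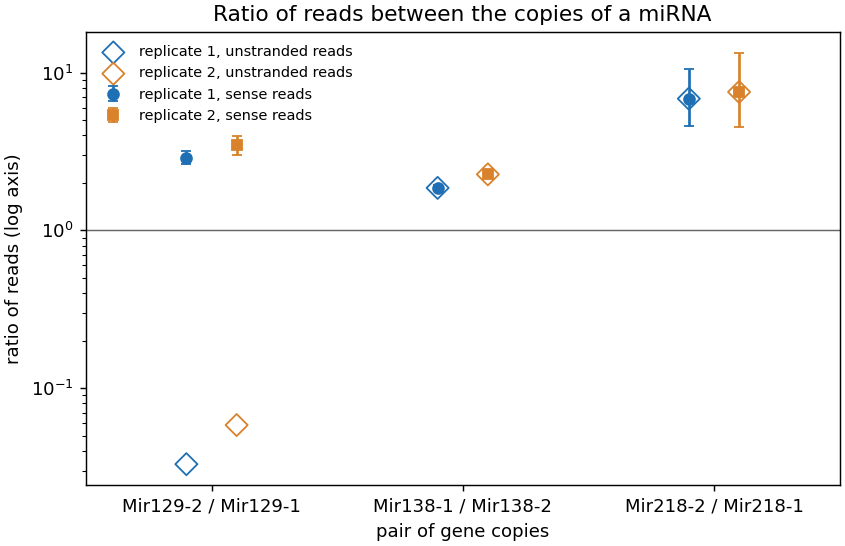
Ratio of reads between the copies of miR-129, miR-138 and miR-218 on a log axis, with filled symbols for sense reads (95% exact intervals) and open diamonds for unstranded reads, blue for replicate 1 and orange for replicate 2. Sense ratios lie above 1 in all 3 pairs, and the unstranded ratios of Mir129-2 to Mir129-1 lie at 0.0330 and 0.0584.

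Each gene that reached 2 CPM in at least 1 library was tested for a difference between the libraries, by Fisher's exact test (two-sided) on its reads against all other assigned reads. A gene was called if its Benjamini-Hochberg adjusted p over the 542 genes tested was under 0.05 and its log2 ratio was 1 or more, or -1 or less. Of the 8 genes 1 was called, Mir153, which was lower in replicate 2. Of all tested genes 12.0% were called, 6.27% lower and 5.72% higher in replicate 2, so 1 of 8 is near the background.

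Mir153 had 8.03 times the CPM in replicate 1 that it had in replicate 2, a log2 ratio of -2.999 (95% exact counting interval -3.32 to -2.70; Fisher's exact test, adjusted p = 4.09e-149). In size this was the 25th largest log2 ratio of the 542. The other 7 ran from -0.60 (Mir129-1) to 0.04 (Mir138-1), the largest of them 230th. These ranks take in genes with few reads and large counting error, such as Mir449c (0 and 6 reads, log2 ratio 4.31). Mir137 had a log2 ratio of -0.55 (-0.58 to -0.52), Mir129-2 of -0.34 (-0.46 to -0.23) and Mir138-2 of -0.25 (-0.32 to -0.18).

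Of the 8 genes, 7 had lower CPM in replicate 2 (6 with TMM or DESeq2 scaling, where Mir218-2 changed sign). Among all 542 tested genes, 298 had a log2 ratio below 0. The median log2 ratio was -0.30 for the 8, against -0.09 over all tested genes. The median size of the log2 ratio was 0.30 for the 8 and 0.46 for all. The second median takes in genes near 2 CPM, where counting error widens the ratios, so the 2 medians are not at like depth. By the adjusted p alone, with no minimum on the ratio, 5 of the 8 were lower in replicate 2 (Mir129-1, Mir129-2, Mir137, Mir138-2 and Mir153). The same held for 24.9% of the genes tested and for 48.4% of the 217 genes at a mean of 100 CPM or more, where counting error is small. All 5 had such a mean, as did Mir138-1, while Mir218-1 and Mir218-2 did not, at means of 10.3 and 73.5 CPM. Mir138-1, Mir218-1 and Mir218-2 did not pass (exact test, adjusted p = 0.228, 0.857 and 1). For Mir138-1 this depends on the scaling: by the exact test it was higher in replicate 2 with TMM totals (adjusted p = 0.000723, log2 ratio 0.092) and with DESeq2 size factors (adjusted p = 7.21e-05, log2 ratio 0.11). With totals of assigned reads the counting intervals of the log2 ratio of these 3 genes were -0.01 to 0.09, -1.11 to 0.76 and -0.35 to 0.31.

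**Figure D4:**
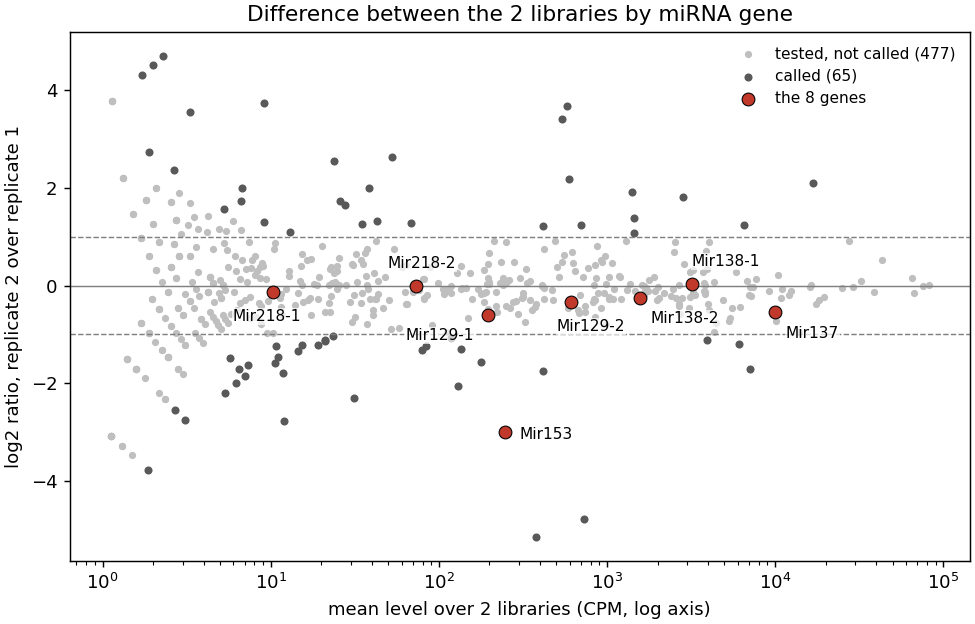
Log2 ratio of replicate 2 over replicate 1 against mean CPM (log axis) for the 542 tested genes, light grey where not called, dark grey where called, and red for the 8 genes; dashed lines mark a log2 ratio of 1 in size. Mir153, at -2.999, is the red point outside the dashed lines, and the other 7 lie between -0.60 and 0.04.

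Markers of other cells also differed between these libraries. The erythroid list (Mir451a, Mir144, Mir486; 3 of 3 detected) summed to 814 CPM in replicate 1 and 56.6 in replicate 2, with 2 members called lower. These were Mir451a (737 and 20.6 CPM) and Mir144 (52.3 and 10.3 CPM), while Mir486 did not fall, at 25.4 and 25.7 CPM. The list of choroid plexus and ependyma (3 of 6 detected) summed to 1120 and 2768 CPM, with 4 of 5 tested members called higher and Mir34c at 93.4 and 993 CPM. Among the called members, Mir34b (3 and 30 reads) and Mir449c (0 and 6 reads) were not detected. Mir204 was not called, at 775 and 1176 CPM, and Mir449b, at 3 and 0 reads, was not tested. The oligodendrocyte list (3 of 4 detected, Mir219b at 0 reads in both) summed to 834 and 1423 CPM, the endothelial Mir126a stood at 9622 and 11137 CPM, the 2 mural genes at 4016 and 4077 and the 4 microglial and leukocyte genes at 1626 and 1598, with no member called. Mir153 moved in the direction of the erythroid sum, of Mir451a and of Mir144, and against that of the choroid plexus sum. The part of these cells, and of the unequal share of unmapped reads, in the Mir153 difference was not tested.

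The other neuron-enriched miRNA genes, a list of 11 from miR-9, miR-124, miR-128, Mir132, Mir212 and Mir134, held 3.02% and 2.42% of assigned reads, more than the 8 genes in each library. Of the 11, 7 were detected and all 11 tested, with 1 called lower (Mir9-3, 161 and 76.0 CPM) and 1 called higher in replicate 2 (Mir132, a miRNA induced by activity, 3886 and 9221 CPM). Mir134 stood at 2013 and 1866 CPM and was not called. The miR-128 genes were not called either, with Mir128-1 at 18242 and 9510 CPM and Mir128-2 at 5629 and 3293 CPM. Their log2 ratios of -0.94 and -0.77 lay on the side of Mir137 and Mir153. The list as a whole had a median of -0.77, with 8 genes lower and 3 higher in replicate 2. This median takes in the genes not detected, which had 10 reads or fewer in each library. The 7 detected genes ran from -1.08 (Mir9-3) to 1.25 (Mir132).

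By distance over log2(CPM + 1) in the 2 libraries, Mir23b was the gene nearest to Mir137 (12602 and 7599 CPM, distance 0.128) and Mir335 the nearest to Mir138-1 (distance 0.127). Mir671 was nearest to Mir138-2 (0.144), Mir326 to Mir129-2 (0.0331), Mir193b to Mir129-1 (0.0826), Mir3093 to Mir218-2 (0.0452) and Mir10a to Mir218-1 (0.163). Mir153 had no close neighbour. The nearest was Mir539, with 266 and 89.7 CPM at a distance of 1.01.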

How the data were processed

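MicroRNA sequencing of total RNA gave 1 library for each of 2 animals. The deposited values are raw counts of reads for every miRNA gene, on assembly mm10 and annotation M21 per the text deposited with the samples. For the aligner, the counter and the trimming, the sources used here give no name. The 3 count columns (unstranded, sense, antisense) were identified from their values, and the sense counts were used. Library sizes exclude the 4 rows with no gene name (assigned reads were 29.5% and 23.5% of all). A count of 3 reads equals 1.12 and 1.71 CPM. A value sums both strands of a hairpin. CAST alleles were not considered.

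Python 3.11.15 with scipy 1.17.1 gave Fisher's exact tests across all genes, Wilson and exact binomial intervals, and log2 ratios with 0.5 reads added. edgeR 4.0.16 (TMM) and DESeq2 1.42.0 in R 4.3.3 gave other scalings. With 1 group there was no contrast for their tests. The library test was run on simulated counts that held counting error only. That run cannot show how the test treats variation between animals. The RefSeq hairpins of all 8 genes equal those of M21. Shared stretches were searched among the 2202 listed hairpins only. Named were the 8 genes, overlapping or similar hairpins, a fixed neuron-enriched list, marker lists and the nearest gene by level. Up to 4 examples of the neuron-enriched list with the highest means were to be named, and Mir9-3 was added after its values were seen. The members and lists were chosen with earlier results of these data known.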

Additional observations from a re-analysis of the deposited data

Results flagged for a closer look

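Reads on the strand opposite to Mir129-2 numbered 4 in replicate 1, above the 3 reads that a count of 0 allows, and 0 in replicate 2. They are the reads that the tables give to Mir129b on its own strand, and they were used in no comparison.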

How the results depend on the processing

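All 8 genes were detected with a minimum of 1 CPM and with the unstranded counts, and 7 with a minimum of 10 CPM. Mir153 was the 1 member called under the unstranded counts, both other scalings and both other filters, where 53 to 64 genes were called in all against 65. Without a minimum on the log2 ratio, 5 members and 229 genes were called. The summed share was 0.702% with multiply mapped reads added to the library total, which lowers every level by the same factor in a library, and 1.36% and 1.81% with 1 library alone. With the unstranded counts the Mir129-2 over Mir129-1 ratio of mean CPM, 3.11, was reversed to 0.0431, the mean level of Mir129-2 was 9.08 CPM and its log2 ratio was 0.22, because reads that overlap Mir129b were then assigned to neither. Per base of hairpin, an alternative chosen after seeing the data, that ratio was 2.52 and the ratio of Mir138-1 to Mir138-2 was 1.46 against 2.04. The log2 ratio of Mir218-2, -0.01, changed sign to 0.0403 with TMM and 0.0546 with DESeq2 size factors. Of 48 alternative log2 ratios of members, 45 kept their direction and their call (adjusted p and log2 ratio together), the other 3 being those just given. By the adjusted p alone, Mir138-1 passed with TMM (0.000723) and with DESeq2 size factors (7.21e-05), against 0.228, and Mir129-2 did not with the unstranded counts (0.842). No paired analysis was possible because there is 1 group. Depth limits Mir218-1 most, at 29 and 17 reads.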
